A study of Mus musculus with 8 samples.

Results

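The comparison described here is the change over time in mouse dendritic cells (DCs) that received only the vehicle: 2 arrays of cells harvested 12 h after addition of 0.1% DMSO against 2 arrays of cells harvested 4 h after it. These 4 arrays were taken from the 8 of the study by their labels, and the other 4 hold cells given 75 μg/mL of [BF/S+L/Ep], an Echinacea purpurea extract dissolved in DMSO, for the same 4 h or 12 h. All groups shared everything else that the sources state: immature bone marrow-derived DCs (BMDCs) from female BALB/c mice, cultured for 9 days with GM-CSF (200 U/mL by the labels, and a higher concentration by the methods). The comparison asks which mRNAs moved in the control cells themselves between the 2 harvests at which the extract was read. Time in culture, time with DMSO and anything else that differed between the harvests cannot be told apart. The paper calls the replicates biological and refers to replicate cell cultures, but no source ties an array to its own animal or culture. The p values measure the spread between these arrays, which may be partly technical.

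Dendritic cells sample antigen in tissues, and on maturation they take up less, raise costimulatory molecules such as CD40 and CD83, and change the chemokines and chemokine receptors they make. NF-κB transcription factors drive much of that program and induce their own inhibitors. Cells in culture also tune lipid synthesis: the SREBP transcription factors switch on the genes of cholesterol and fatty acid synthesis when membrane cholesterol is low, and the LXR receptors switch on cholesterol export when oxysterols are high. Marrow cultures grown with GM-CSF contain dividing precursors, whose mitotic genes are silent in cells that have left the cycle.

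Each array gives 1 MAS5 signal per probe set, an intensity on a linear scale that the authors had brought to the same trimmed mean on every array. The dim end was judged against a background reference, the 95th percentile of 84 probe sets for odorant, pheromone and taste receptors, which lay at 91.0 and 97.3 on the DMSO 4 h arrays and at 106.9 and 81.2 on the DMSO 12 h arrays. Between 48.8% and 51.3% of probe sets were above it on these 4 arrays. Replicate arrays correlated with r = 0.969 at 4 h and 0.968 at 12 h (log2 signals of 23355 probe sets that exceeded this level on 4 or more of the 8 arrays), and 4.76% and 4.95% of these probe sets were 2-fold or more apart between the replicates. The ratio of the 3′ to the 5′ control probe set, a sign of RNA integrity, lay between 1.2 and 1.24 for actin. For Gapdh it was 0.734 and 0.718 at 4 h and 0.652 and 0.673 at 12 h. With 2 arrays a group, precision is limited by their number.

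At 12 h, 533 of 45037 probe sets were higher than at 4 h (1.18%) and 415 were lower (0.921%) by limma with an adjusted p under 0.05. They belong to 385 genes that were higher and 313 that were lower, and no gene was called in both directions. The 2 arrays of a group lay on the same side of both arrays of the other group for all 533 and all 415. Passing the test itself favours such a separation, so it adds no support to the calls. The median change was 0.82 on the log2 scale for the higher and -0.82 for the lower probe sets, and 182 and 164 of them reached 2-fold. The median difference of 18193 genes, each at its brightest probe set, was -0.01, so the centre of the distribution lay near 0. With each array centred on its median signal, 215 probe sets were higher and 290 lower, so the split depends on the scaling. Leaving out any 1 of the 4 arrays gave between 161 and 224 higher and between 123 and 180 lower. With the spread moderated toward a common value for bright and dim probe sets alike, 0 were called in either direction, at a smallest adjusted p of 0.116 and with 2356 higher and 1751 lower at an unadjusted p under 0.05.

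**Figure D1:**
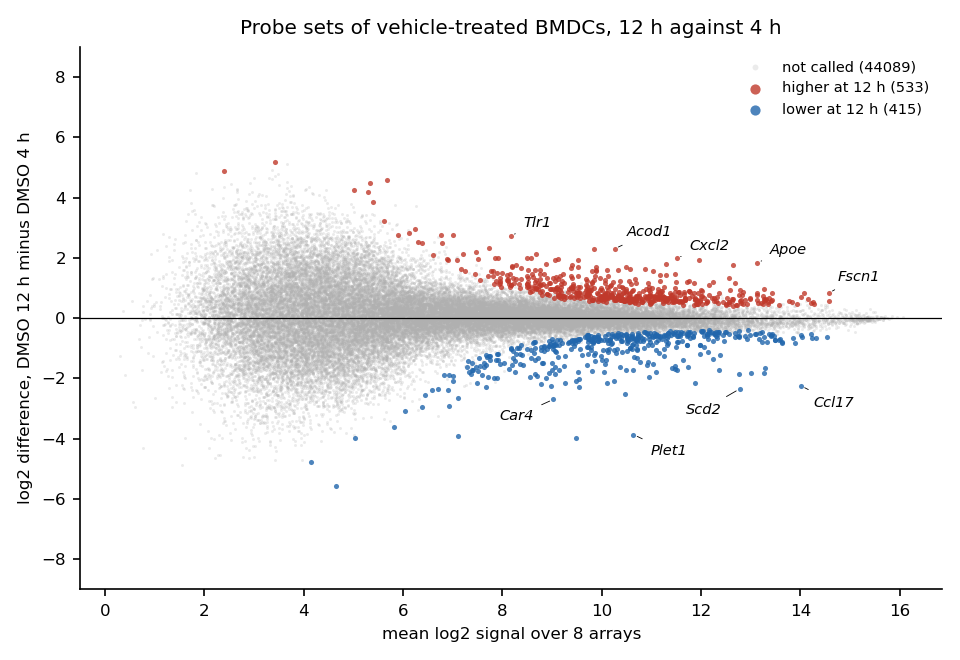
Log2 difference between the DMSO 12 h and DMSO 4 h group means of each of 45037 probe sets (vertical axis) against its mean log2 signal over the 8 arrays (horizontal axis), with the 533 higher probe sets in red and the 415 lower in blue. The spread of the grey probe sets widens at low signal, and the calls lie mostly among the bright ones, with Plet1, Scd2 and Ccl17 far below the cloud and Acod1, Cxcl2 and Apoe above it.

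Of the 45 gene lists described, that of cholesterol and fatty acid synthesis had the highest share of called members. Of 31 measured genes of cholesterol synthesis and its SREBP regulators, 25 were lower and none was higher, where 1.55% of all genes were lower and 1.79% higher at their brightest probe set. The median difference of the 31 was -1.33, and 30 of the 31 were negative. Scd2, a desaturase that makes oleate and palmitoleate, gave signals of 14801 and 17418 at 4 h and of 3119.7 and 3158 at 12 h, a log2 difference of -2.35 ± 0.11 (SE; adjusted p = 2.59e-07, limma). Fdps, which makes farnesyl diphosphate, went from 7969.9 and 7598 to 1582 and 1907 (-2.16 ± 0.12, adjusted p = 9.88e-07). Fasn, the fatty acid synthase, went from 2031 and 2276 to 481 on both arrays (-2.16 ± 0.13, adjusted p = 1.60e-06). In these 3 genes both 12 h arrays lay far below both 4 h arrays, and the replicates were close.

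The members are given in the order of the pathway, and differences between members were not tested. Hmgcs1, the synthase of the entry step, went from 16545 and 18193 to 5520.4 and 5395 (-1.67 ± 0.10, adjusted p = 2.04e-06). The kinases and decarboxylase that follow fell by 1.40 for Mvk, 0.57 for Pmvk and 1.07 for Mvd on the log2 scale. Idi1, the isomerase between them and Fdps, did not pass, with 11563 and 10635 at 4 h and 8736 and 10324 at 12 h (-0.22 ± 0.11, adjusted p = 0.477). Beyond Fdps, the squalene steps fell by 1.73 (Fdft1) and 1.80 (Sqle), and Lss, which closes the sterol ring, went from 1401 and 1502 to 390.3 and 326 (-2.02 ± 0.18, adjusted p = 3.50e-05). Of the later sterol enzymes, Cyp51, Msmo1, Nsdhl, Hsd17b7 and Sc5d fell by between 1.25 and 1.63, and Dhcr7, the last enzyme of the pathway, went from 1487 and 1540.1 to 399.8 and 316 (-2.09 ± 0.22, adjusted p = 1.83e-04). Ebp (-0.49 ± 0.12, adjusted p = 0.0593) and Tm7sf2 (-0.11 ± 0.22, adjusted p = 0.913) did not pass.

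Regulators of the pathway and fatty acid enzymes were also lower. Both SREBP genes were lower: Srebf2 went from 2429 and 1944 to 956 and 1163 (-1.04 ± 0.14, adjusted p = 0.00135) and Srebf1 from 1486 and 1695 to 892 and 899 (-0.83 ± 0.14, adjusted p = 0.00614). Insig1, which retains SREBP in the endoplasmic reticulum and is itself an SREBP target, fell by 0.71, while Insig2 (0.11 ± 0.15) and Scap (-0.49 ± 0.18) did not pass (adjusted p = 0.868 and 0.264). Acly, which supplies acetyl-CoA, fell by 0.77, Scd1 by 1.33, Elovl6 by 1.0, Fads1 by 0.47 and Fads2 by 1.57, while the carboxylase Acaca gave 669 and 759.9 at 4 h and 608 and 707 at 12 h (-0.12 ± 0.17, adjusted p = 0.867). The sterol carrier Stard4 fell by 1.56. Outside the list, Aacs, which activates acetoacetate for lipid synthesis, went from 1212 and 1178 to 275 and 257 (-2.17 ± 0.15, adjusted p = 4.21e-06). All 25 called members were also called lower on the extract arrays between the same times. With 1 of the 4 DMSO arrays left out, 18 or 19 of the 31 were called, and 24 with median centring.

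The promoters of these genes are shown because SREBP is known to act beside the factor NF-Y, which binds CCAAT, and because the mitotic genes described next are also known NF-Y targets. Among the RefSeq promoters used (mouse assembly GRCm38.p6, 250 bases before to 50 after each start), 14368 genes with a tested probe set had a promoter, and 42% of these held CCAAT on either strand. Of the 24 list members with a promoter, 20 held it (83.3%). The share was 57.9% among the genes lower at 12 h and 38.7% among those higher. CACCCCAC, also searched on both strands, stood in 4.17% of the list's promoters (1 of 24) and 3.75% of all. CACGTG stood in 20.8% of the list's promoters (5 of 24) and 10.3% of all. Differences between these shares were not tested. The 150 bases before the start are printed for 4 genes that fell, read along the gene's own strand, with CCAAT or its reverse complement ATTGG in capitals.
Hmgcs1 (chr13:119690201-119690350, + strand): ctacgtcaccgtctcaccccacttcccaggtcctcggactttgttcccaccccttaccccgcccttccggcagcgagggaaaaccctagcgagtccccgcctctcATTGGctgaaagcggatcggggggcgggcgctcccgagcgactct
Lss (chr10:76531455-76531604, + strand): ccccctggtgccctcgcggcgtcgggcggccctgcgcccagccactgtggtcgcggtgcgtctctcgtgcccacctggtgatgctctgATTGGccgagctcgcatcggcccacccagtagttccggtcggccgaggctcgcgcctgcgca
Dhcr7 (chr7:143830064-143830213, + strand): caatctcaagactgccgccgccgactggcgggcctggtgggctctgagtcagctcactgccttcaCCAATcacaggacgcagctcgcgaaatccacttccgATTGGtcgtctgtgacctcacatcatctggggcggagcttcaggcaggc
Fasn (chr11:120824548-120824697, - strand): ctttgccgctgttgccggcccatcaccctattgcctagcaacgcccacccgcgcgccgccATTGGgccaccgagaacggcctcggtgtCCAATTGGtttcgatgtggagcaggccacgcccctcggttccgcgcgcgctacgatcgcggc
Dhcr7 holds 2 matches and Fasn 3, of which a pair overlaps. For Scd2 and Fdps, which also fell, no window with a match was found, and whether they had a promoter in the set is not given here. Idi1, which did not pass, also holds 2 in the same window, and Ebp, Tm7sf2 and Insig2, which did not pass either, hold at least 1 each. A match is a description of the letters and not a measured site.

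Most mitotic genes were lower at 12 h. Of 42 measured genes of mitosis, 30 were lower (71.4%, against 1.55% of all genes) and none higher. Their median difference was -1.39, and 41 of the 42 were negative. Cdc20, the activator of the anaphase-promoting complex, went from 1789 and 1698 to 483 and 557 (-1.75 ± 0.14, adjusted p = 1.46e-05). Stmn1, a microtubule destabilizer high in dividing cells, went from 4147 and 4483 to 1052 and 1180.4 (-1.95 ± 0.15, adjusted p = 1.32e-05). The ubiquitin-conjugating enzyme Ube2c went from 1899 and 2170.4 to 517 and 667 (-1.79 ± 0.15, adjusted p = 2.15e-05). In all 3, each 12 h array was far under each 4 h array, and the groups did not overlap. The cyclin Ccnb2 went from 1579.6 and 1338 to 383 and 463 (-1.79 ± 0.15, adjusted p = 3.15e-05), and the spindle pole gene Aspm from 440.3 and 413 to 89.9 and 84.8 (-2.29 ± 0.27, adjusted p = 4.50e-04). The kinase Nek2, which splits centrosomes, went from 280.2 and 379 to 59.3 and 44.7, under the reference on both 12 h arrays, and was at least 3.50-fold lower (adjusted p = 0.00248). Kif2c, a microtubule depolymerase, was likewise under the reference at 12 h, and at least 3.95-fold lower. The proliferation marker Mki67, named after its values were seen, went from 1468 and 1508 to 577 and 659.8 (-1.27 ± 0.14, adjusted p = 2.22e-04), so its mRNA was still well above the reference at 12 h.

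Of the 34 mitosis genes with a RefSeq promoter, 26 held CCAAT (76.5%, against 42% of all genes). The windows of 4 of the genes above are printed in the same way.
Ccnb2 (chr9:70421555-70421704, - strand): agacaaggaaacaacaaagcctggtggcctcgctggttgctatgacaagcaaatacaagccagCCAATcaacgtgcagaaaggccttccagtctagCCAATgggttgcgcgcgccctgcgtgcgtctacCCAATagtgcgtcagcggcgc
Cdc20 (chr4:118437344-118437493, - strand): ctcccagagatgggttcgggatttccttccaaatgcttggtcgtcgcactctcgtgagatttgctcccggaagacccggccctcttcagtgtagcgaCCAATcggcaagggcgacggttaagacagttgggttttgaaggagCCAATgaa
Ube2c (chr2:164769779-164769928, + strand): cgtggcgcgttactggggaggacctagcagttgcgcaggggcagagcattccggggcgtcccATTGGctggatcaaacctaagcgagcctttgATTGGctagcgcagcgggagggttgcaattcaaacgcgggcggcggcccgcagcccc
Aspm (chr1:139454623-139454772, + strand): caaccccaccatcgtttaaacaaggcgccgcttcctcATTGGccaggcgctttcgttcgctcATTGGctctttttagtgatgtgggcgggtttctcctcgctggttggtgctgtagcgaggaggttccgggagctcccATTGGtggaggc
Ccnb2 and Aspm hold 3 matches each and Cdc20 and Ube2c 2 each. The windows of Nek2 and Mki67, also described above, hold 1 each. For Stmn1 and Kif2c, described above too, no window with a match was found. A promoter missing from the set was not told apart from a window without CCAAT. Over the whole promoters, CCAAT stood in 63.9% of the replication, 31.2% of the NF-κB and 17.6% of the chemokine list.

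Fewer genes of DNA replication passed. Of 45 measured genes of DNA replication and the G1/S transition, 5 were lower and none higher (11.1%, against 1.55% of all genes), and their median difference was -0.53. Rrm2, the ribonucleotide reductase subunit that limits deoxynucleotide supply, went from 1011 and 1137 to 254 and 214 at its brightest probe set (-2.20 ± 0.19, adjusted p = 2.64e-05), and 2 other probe sets were called lower too. The sliding clamp Pcna went from 12812 and 13570.3 to 8438 and 9656 (-0.55 ± 0.11, adjusted p = 0.0162). The helicase subunits Mcm5 and Mcm7 fell by 0.82 and 0.69, and the licensing factor Cdt1 by 0.56. In promoters of this list the E2F motif TTTGGCGC (either strand) stood in 19.4% (7 of 36), where 0.933% of all promoters held it. In a bulk sample, fewer dividing cells and less of these mRNAs per cell cannot be told apart. With median centring 30 mitosis genes and 3 replication genes were lower, and with 1 DMSO array left out between 17 and 21 mitosis genes.

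**Figure D2:**
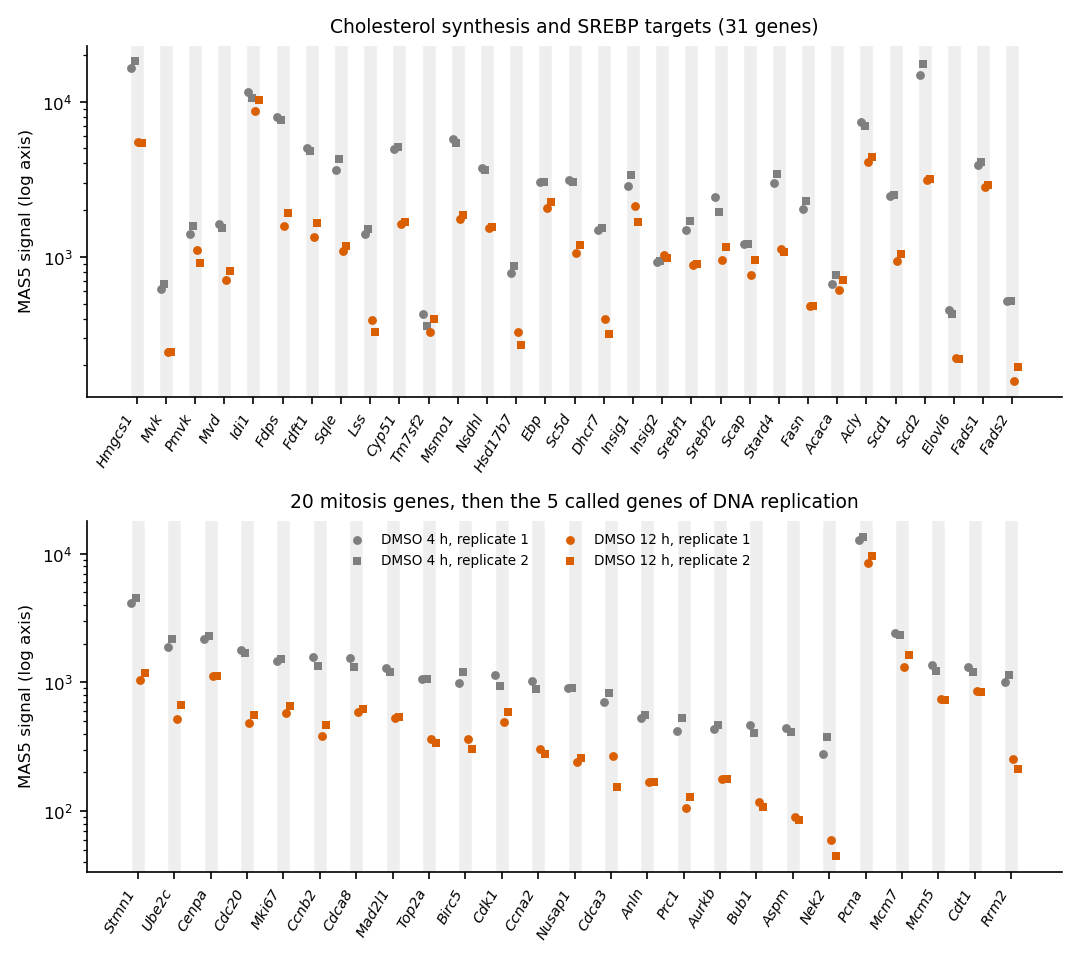
MAS5 signal (log axis) on each of the 4 vehicle arrays, grey for DMSO 4 h and orange for DMSO 12 h, circles for replicate 1 and squares for replicate 2. Above are the 31 measured genes of cholesterol synthesis and SREBP regulation in pathway order, where the grey and orange points of Idi1, Tm7sf2, Insig2 and Acaca lie close or overlap, and below are 20 of the mitosis genes followed by the 5 called replication genes, where orange lies under grey throughout.

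Plet1 had the largest fall among called genes above the reference on both 4 h arrays. This GPI-anchored surface protein went from 4414 and 4948 to 277 and 368 at its brightest probe set (-3.87 ± 0.15, adjusted p = 6.39e-08) and from 2075 and 1917 to 129 and 125 at another (-3.97 ± 0.20), 14.6-fold and 15.7-fold lower. Car4, a membrane-bound carbonic anhydrase, went from 1161 and 1290.5 to 195 and 180.4 (-2.70 ± 0.16, adjusted p = 1.60e-06). The chemokine Ccl17, which draws CCR4-bearing T cells, was among the brightest probe sets at 4 h and went from 34199.5 and 38112 to 7503 and 7689 (-2.25 ± 0.11, adjusted p = 3.71e-07). It was the only called member of 25 measured chemokines that was lower. Its usual companion Ccl22, named here after its values were seen, gave 21449 and 19666 at 4 h and 23832 and 26408 at 12 h (0.29, adjusted p = 0.245). The galactose lectin Mgl2 went from 9549 and 9412 to 2637 and 3129.7 (-1.72 ± 0.14, adjusted p = 1.83e-05), and Il1r2, the decoy receptor for IL-1, from 1498 and 1211 to 218 and 348 (-2.29 ± 0.20, adjusted p = 3.50e-05). Ccl17 and Mgl2 belong with Ccl24 and Egr2 to a list of 20 measured alternative activation genes, with a median of -0.10. Of the 20, 2 were lower (10%, against 1.55% of all genes) and 2 higher (10%, against 1.79%).

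Several further lists had members that fell. H2-DMb2, a chain of the peptide editor of MHC class II, went from 5382 and 5626 to 2143 and 2029 (-1.40 ± 0.11, adjusted p = 1.83e-05), while the class II chain H2-Aa itself gave 52567 and 54212 at 4 h and 49544 and 53835 at 12 h (-0.05 ± 0.11, adjusted p = 0.934). Of 33 measured glycolysis and hypoxia genes, 6 were lower (18.2%, against 1.55% of all genes) and 4 higher (12.1%, against 1.79%). Among the lower, Pfkp, a phosphofructokinase, fell by 0.96, Ldha, lactate dehydrogenase, by 0.78, and Pgk1, phosphoglycerate kinase, by 0.65. The glycolytic genes Tpi1 and Aldoc fell by 0.54 and 0.45 and the oxidase Ero1a by 0.58 at its brightest probe set. Ero1a had 2 other probe sets above the reference, of which none had the same sign and none was called. Among the higher, Pfkfb3, which makes the activator of phosphofructokinase, rose from 2049 and 1979 to 3375 and 3741 (0.82 ± 0.11), and the glucose transporter Slc2a1 by 0.57. The 2 subunits of glutamate-cysteine ligase, the limiting enzyme of glutathione synthesis, were lower, Gclm by 0.79 and Gclc by 0.57, and so was Mgst3 by 1.06. The growth factor homologue Fgf13 went from 2611 and 2392 to 827 and 775 (-1.64 ± 0.13, adjusted p = 1.57e-05). The TGF-β receptor gene Tgfbr1 fell by 0.78 and the TGF-β target Pmepa1 by 1.55, and Tsc22d3 and Klf9, both known glucocorticoid targets, fell by 0.87 and 0.68. These were the only calls in their lists, 2 of 25 measured TGF-β response genes (8%) and 2 of 15 glucocorticoid targets (13.3%), against 1.55% of all genes. The list medians were -0.07 and -0.02. Of the 25, 9 were positive and 16 negative, and of the 15, 7 were positive and 8 negative.

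Several other chemokines rose. Of the 25 measured, 10 were higher at their brightest probe set (40%, against 1.79% of all genes), and the median difference was 0.61. Cxcl2, a neutrophil attractant, rose from 1032 and 1156 to 4493 and 4202 (1.99 ± 0.12, adjusted p = 2.04e-06) and its relative Cxcl3 from 1424 and 1462 to 6333 and 4752 (1.93 ± 0.14, adjusted p = 6.33e-06). Cxcl1, of the same group, was called at 2 probe sets, at one of them from 177 and 139 to 647 and 617 (2.01 ± 0.20), but not at its brightest, from 422 and 408 to 687 and 584 (0.61, adjusted p = 0.131). Ppbp, a chemokine best known from platelets, rose from 638 and 980.2 to 2405 and 2233 (1.55 ± 0.16, adjusted p = 1.62e-04). Cxcl14 rose from 1486 and 1719 to 4419.8 and 4453 (1.47 ± 0.11, adjusted p = 1.10e-05). In each of these genes both 12 h arrays lay above both 4 h arrays. Cxcl13, the B cell attractant of lymphoid follicles, rose from 328 and 319 to 1588 and 1562 (2.28 ± 0.14, adjusted p = 2.04e-06). Ccl5, among the brightest, rose from 15438 and 15649 to 22754 and 25576 (0.63 ± 0.11, adjusted p = 0.0109). Ccl3, Ccl24 and the interferon-inducible Cxcl10 rose by 0.75, 0.59 and 1.15, and Cxcl11 went from 63.8 and 17.3, under the reference, to 166 and 207, at least 1.97-fold higher (adjusted p = 0.0379). Cxcl5 was called with both groups under the reference, so no fold is given.

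Receptors for chemoattractants also rose in part, with 7 of 18 measured higher (38.9%, against 1.79% of all genes) and none lower (median 0.58). Ccrl2, a receptor that binds chemerin without signalling, rose from 877 and 775 to 2521 and 2556 (1.62 ± 0.12, adjusted p = 6.69e-06). Cx3cr1, the fractalkine receptor, rose from 516 and 545 to 1693 and 1415 (1.55 ± 0.13, adjusted p = 3.38e-05). The formyl peptide receptor Fpr2 rose from 7008 and 6873 to 10886 and 12172 (0.73 ± 0.10), the signalling chemerin receptor Cmklr1 by 0.82, the anaphylatoxin receptors C5ar1 and C3ar1 by 0.83 and 0.59, and Cxcr4 by 0.48. Ccr7, which guides mature DCs to lymph nodes and was followed on the cell surface in the study, gave 15945 and 12615 at 4 h and 19382 and 22854 at 12 h, higher on both arrays but short of the threshold (0.57 ± 0.15, adjusted p = 0.0804).

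Among 21 measured cytokines, 5 were higher (23.8%, against 1.79% of all genes) and none lower. Il12b, the p40 chain shared by IL-12 and IL-23, rose from 766 and 768 to 2588 and 2082 (1.60 ± 0.13, adjusted p = 2.38e-05). Il1b rose from 6797 and 7578 to 11987 and 12569 (0.77 ± 0.11, adjusted p = 0.00159), and Il1a and Il6 by 1.60 ± 0.32 and 1.46 ± 0.34 from signals that varied between the 4 h arrays (123 and 288 for Il1a, 247 and 101 for Il6). The angiogenic factor Vegfa rose by 0.68. With median centring, 6 chemokines, 3 receptors and 3 cytokines were higher. With 1 DMSO array left out, 5 or 6 chemokines were.

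NF-κB subunits and regulators were higher in 9 of 18 measured genes (50%, against 1.79% of all genes) and lower in none, with a median of 0.53. Nfkbiz, an inducible nuclear cofactor of NF-κB, rose from 322 and 314 to 1081 and 926 (1.66 ± 0.15, adjusted p = 6.24e-05). The feedback inhibitors Tnfaip3 and Nfkbie rose from 1943 and 1949.9 to 3363 and 3786 (0.87 ± 0.11, adjusted p = 0.00103) and from 3355 and 3261 to 5404 and 5719.9 (0.75 ± 0.10, adjusted p = 0.00115). Of the subunits, Relb rose by 0.89 and Nfkb2 by 0.61, and the signalling proteins Birc2, Birc3, Traf1 and Tnfaip2 by between 0.49 and 0.67. Apart from Nfkbiz, the changes of the 9 were under 2-fold.

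Of 26 measured genes of DC maturation and costimulation, 12 were higher (46.2%, against 1.79% of all genes) and none lower (median 0.52). Among the called members the largest rises were in Stat4, a transducer of IL-12 signals, from 484 and 578 to 1348 and 1830.5 (1.57 ± 0.17, adjusted p = 2.68e-04), and in the granzyme inhibitor Serpinb9, from 3945 and 3679 to 9318 and 9846 (1.33 ± 0.12, adjusted p = 6.20e-05). A member that did not pass had a larger difference (2.71). Its relative Serpinb6b rose by 1.22 and the inhibitory ligand Cd200 by 1.26. Cd83, a marker of mature DCs, rose from 9443 and 8191 to 14493 and 16679.8 (0.82 ± 0.12, adjusted p = 0.00194), and Cd40, the receptor for T cell help, from 625 and 595 to 993 and 1289 (0.89 ± 0.16, adjusted p = 0.0124). Fscn1, the actin bundler of mature DC dendrites, rose from 20878 and 18371 to 34333 and 35138 (0.83 ± 0.12, adjusted p = 0.00182), and Cd274, Marcksl1 and Icam1 by 0.52, 0.52 and 0.41. Of Cd80, another costimulatory gene that the study stained for, the brightest probe set did not pass and gave 396 and 402 at 4 h and 484 and 476 at 12 h (0.27 ± 0.20, adjusted p = 0.674), while a dimmer one, with the same sign, rose from 369 and 252 to 576 and 568 (0.91 ± 0.21, adjusted p = 0.0444). Cd86 did not pass and gave 3385 and 2889.6, then 2847 and 2914 (-0.12 ± 0.13, adjusted p = 0.815). With median centring 4 of the NF-κB and 5 of the maturation genes were higher, and with 1 DMSO array left out 4 to 7 and 3 to 7.

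Receptors for microbial products rose in part. Of 24 measured pattern recognition genes 5 were higher (20.8%, against 1.79% of all genes) and none lower, and 1 was higher with median centring. Tlr1, the partner of TLR2 for triacylated lipopeptides, was near the reference at 4 h, at 95.2 and 97, and reached 658 and 621 at 12 h (2.73 ± 0.22, adjusted p = 1.61e-05). Tlr2 itself rose from 4920.4 and 4844 to 7011 and 7541 (0.57 ± 0.10, adjusted p = 0.00649), the LPS co-receptor Cd14 from 12885 and 10963 to 19514 and 19127 (0.70 ± 0.14, adjusted p = 0.021), Tlr13 by 0.55 and the kinase Irak2 by 0.78. Among 19 measured C-type lectins, 4 were higher (21.1%, against 1.79% of all genes) and only Mgl2 was lower. Clec4e, the receptor for mycobacterial cord factor, rose from 3796 and 3542 to 7962 and 8449 (1.16 ± 0.10, adjusted p = 2.38e-05), its neighbour Clec4d from 6551 and 6676 to 12761 and 12805 (0.95 ± 0.10, adjusted p = 1.25e-04), Ly75, the DEC-205 uptake receptor, by 1.16, and Clec4a3 by 0.45. The Fc receptor gene Fcgr4 rose from 229.8 and 185 to 849 and 942 (2.12 ± 0.21, adjusted p = 1.17e-04), and Stab1, a scavenger receptor, by 0.85, while Scarb1, the receptor for HDL, fell by 0.72.

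**Figure D3:**
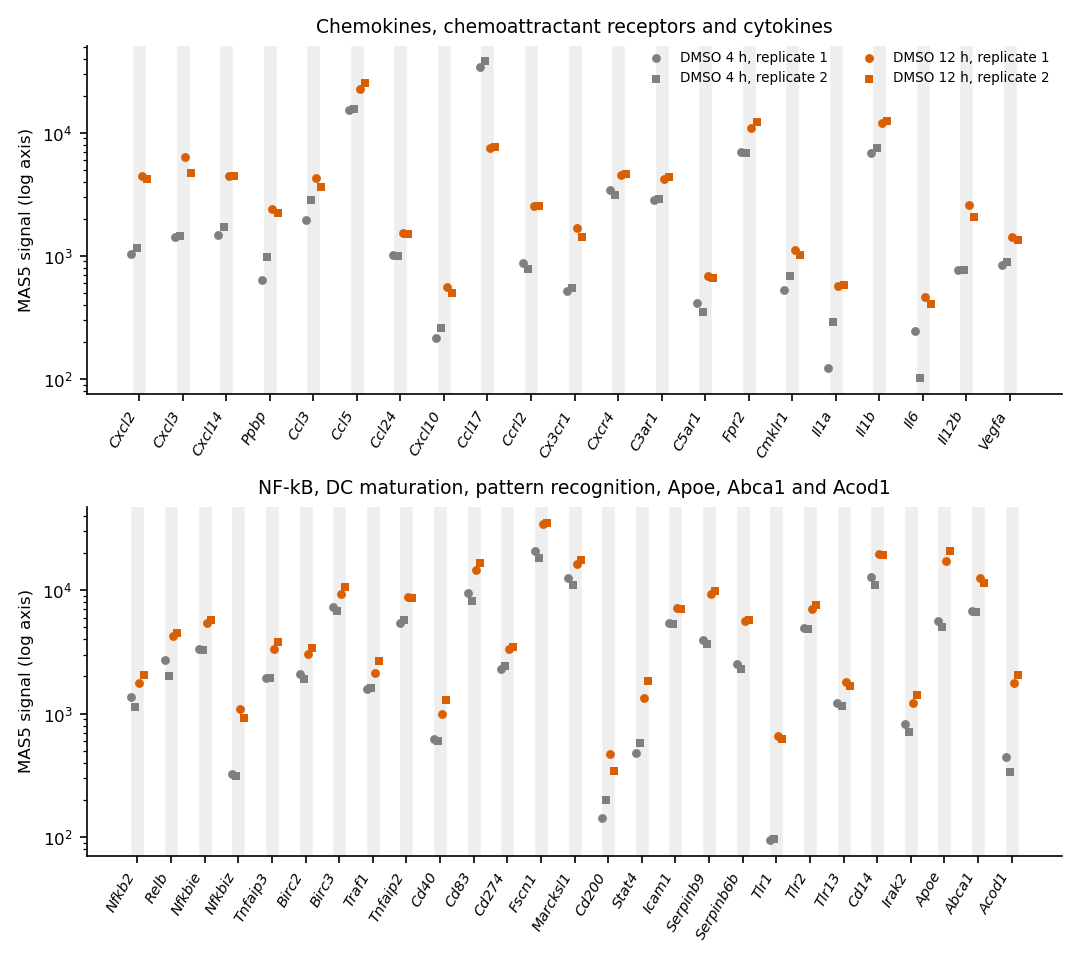
MAS5 signal (log axis) on each of the 4 vehicle arrays, grey for DMSO 4 h and orange for DMSO 12 h, circles for replicate 1 and squares for replicate 2. Orange lies above grey for every gene drawn except Ccl17, and Il1a and Il6 show the widest gap between the 4 h arrays.

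Some genes of lipid export and storage rose. Of 25 measured LXR targets and lipid-loading genes, 6 were higher (24%, against 1.79% of all genes) and none lower. Apoe, the main apolipoprotein secreted by macrophages, rose from 5626 and 5041 to 17359.6 and 20864 (1.84 ± 0.12, adjusted p = 4.21e-06). The cholesterol exporter Abca1 rose from 6772 and 6702 to 12580.0 and 11439 (0.83 ± 0.10, adjusted p = 6.15e-04), and Apoc2, a cofactor of lipoprotein lipase, by 0.97. The fatty acid binding protein Fabp4 rose from 281 and 297 to 1004 and 1018 (1.81 ± 0.19, adjusted p = 1.48e-04), Gpnmb, a glycoprotein of lipid-laden phagocytes, from 814 and 870.4 to 2536 and 2731 (1.64 ± 0.12, adjusted p = 1.23e-05), and Acp5, an acid phosphatase, by 0.67. The median of the whole list was 0.21, and Srebf1, itself an LXR target, was lower as described above.

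Of 18 measured genes of itaconate, nitric oxide and arginine metabolism, 3 were higher (16.7%, against 1.79% of all genes) and none lower (median 0.12). Acod1, which makes itaconate, rose from 443 and 339 to 1787 and 2052 (2.30 ± 0.15, adjusted p = 3.61e-06) and Arg2, the mitochondrial arginase, from 1585 and 1467 to 3502 and 3614 (1.22 ± 0.12, adjusted p = 7.01e-05). Of 20 measured complement genes 5 were higher (25%, against 1.79% of all genes) and none lower. They were the 3 chains of C1q (C1qa by 0.44, C1qb by 0.56 and C1qc by 0.57) and C3ar1 and C5ar1. The median of the complement list was -0.05, and none of it passed with median centring. The matrix protease Mmp9 went from 90.2 and 94.7, under the reference, to 457 and 470.0 at its brightest probe set, at least 4.93-fold higher (adjusted p = 0.00106). Mmp13 rose by 1.07, the sheddase Adam17 by 0.51, and Mmp19 fell by 1.05. Of 33 measured growth factor, Wnt and Notch genes, 6 were higher (18.2%, against 1.79% of all genes) and 1 was lower (median 0.15). Igf1, which macrophages secrete, rose from 1079 and 889.8 to 2137 and 2492 (1.24 ± 0.13, adjusted p = 1.99e-04). Bmp2, a TGF-β family ligand, went from 17.1 and 6.1 to 187 and 286, at least 2.46-fold higher (adjusted p = 0.018), and Inhba, Wnt11 and the Wnt receptor Fzd1 rose by 0.75, 0.88 and 0.78.

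Transcription factors of DCs and macrophages moved in both directions. Of 39 measured, 7 were higher (17.9%, against 1.79% of all genes) and 2 lower (5.13%, against 1.55%). Zbtb46, a factor of conventional DCs, rose from 643 and 621 to 1037 and 1138 (0.78 ± 0.14, adjusted p = 0.0093), Batf3 by 0.70, Irf8 by 0.50, Maf, a macrophage factor, by 1.0, Relb as given above, and Ets2 and Hif1a by 0.56 and 0.44. Klf4 and Klf2 fell by 0.64 and 0.67. Among 34 measured immediate early genes, 4 were higher (11.8%, against 1.79% of all genes) and 2 lower (5.88%, against 1.55%). Their median was 0.23, with 23 positive and 11 negative. Fos, Egr2, Ier3 and Ier5 rose by 0.96, 0.75, 1.0 and 0.44, and the same 2 Klf genes fell. With median centring 2 of the transcription factors were higher.

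Other functions had few or no calls. Over the 45 lists, 13 had members that were higher and none lower, 7 the reverse, 18 both, and 7 neither. Those with no call were MHC class I processing (17 measured), fatty acid oxidation (22), cytosolic ribosomal proteins (39), the proteasome (31), heat shock chaperones (25), the circadian clock (20) and prostaglandin and leukotriene synthesis (22). A p that missed the threshold does not show that a gene stayed level. All 31 proteasome genes had a negative difference, with a median of -0.16 and none beyond -0.42, and under quantile normalization 29 of the 31 were negative. Of 48 measured genes of the respiratory chain 47 were negative (median -0.28) and 2 passed, Cyc1 of complex III (-0.41 ± 0.09) and the ATP synthase gene Atp5g1 (-0.58 ± 0.12). Interferon-stimulated genes had a median of -0.11 over 34, with Mx1 higher by 0.64 and Oas1a and Rsad2 lower by 0.51 and 0.69.

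Single members of further lists passed, some of these lists at shares near those of all genes (1.79% higher, 1.55% lower). The integrin subunit Itga4, a chain of VLA-4, rose from 1950.1 and 2438 to 4561 and 5611 (1.21 ± 0.13), while F11r, a junctional adhesion molecule, fell by 0.72. Phgdh, the entry enzyme of serine synthesis, went from 529 and 479 to 159 and 132 (-1.80), the stress protein Nupr1 rose by 1.47, and the translation repressor Eif4ebp1 fell by 0.60. The phagosomal metal transporter Slc11a1 rose by 1.13, the kinases Pim3 and Plk2 by 1.40 and 0.98, and the caspase-8 regulator Cflar by 0.60. Of the lysosome list Ctsl, a cathepsin, and Atp6v1b2, of the proton pump, rose by 0.53 and 0.56, and Marchf1, a ubiquitin ligase of MHC class II, by 0.58. Eif4ebp1 and Atp6v1b2 each had 2 other probe sets above the reference, of which 1 had the same sign and none was called. The mitochondrial superoxide dismutase Sod2 and Ncf4, of the phagocyte oxidase, rose by 0.58 and 0.60, and Lpcat2, which makes platelet-activating factor, by 0.73. The actin severing protein Gsn fell by 0.61 and tropomyosin Tpm1 rose by 0.53, Anxa3 rose by 0.82 and S100a6 fell by 0.63. The nucleolar genes Nop16 and Dkc1 fell by 0.52 and 1.07. The counts were 2 higher and 2 lower of 35 for integrins and adhesion, 1 and 2 of 45 for unfolded protein and amino acid stress, 1 and 0 of 26 for iron, 1 and 0 of 22 for GM-CSF signalling, and 1 and 0 of 28 for p53 targets. They were 3 and 1 of 25 for apoptosis, 2 and 0 of 44 for the lysosome, 2 and 1 of 17 for MHC class II, 1 and 3 of 39 for NRF2 and glutathione, and 1 and 1 of 13 for aryl hydrocarbon receptor targets. They were 3 and 1 of 46 for the cytoskeleton, 2 and 1 of 19 for annexins and S100 proteins, and 0 and 2 of 37 for ribosome biogenesis.

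**Figure D4:**
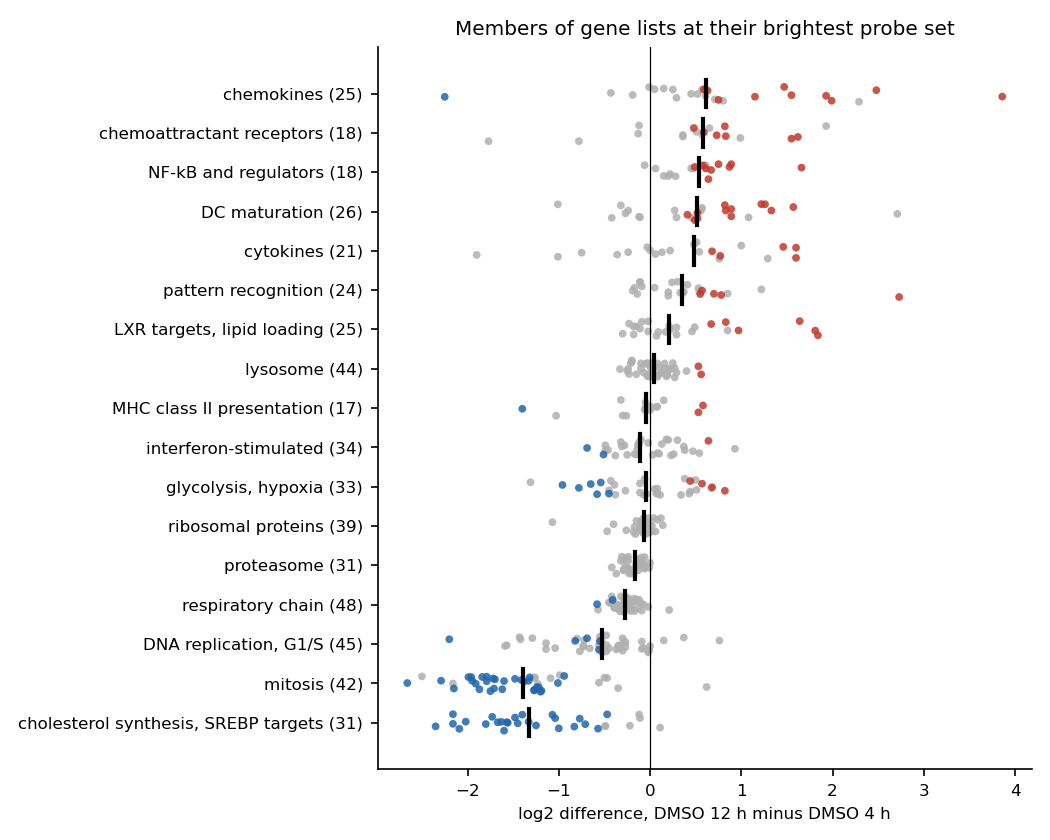
Log2 difference between DMSO 12 h and DMSO 4 h of each measured member of 17 gene lists at its brightest probe set, with red and blue for members that passed as higher or lower, grey for the others, a black bar at the list's median and the number of members in parentheses. Cholesterol synthesis and mitosis lie almost wholly below 0, with medians of -1.33 and -1.39, and chemokines, their receptors, NF-κB and DC maturation have medians between 0.52 and 0.61.

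The 20 largest rises and the 20 largest falls by a fixed rule (a call, 1 gene symbol, and both arrays of the higher group above the reference) include genes not described above. At 12 h Sorl1, a sorting receptor, rose from 112 and 132 to 476 and 491 (1.99 ± 0.25, adjusted p = 7.52e-04), Actg2, an actin of smooth muscle, from 114 and 159 to 510.3 and 572 (2.01 ± 0.29), Insm1, a zinc finger factor of endocrine cells, from 138 and 73 to 495 and 419 (2.18 ± 0.40) and Calb2, the calcium binder calretinin, from 135 and 115 to 498 and 472 (1.96 ± 0.31, adjusted p = 0.00428). Of the 20 rises 9 had both 4 h arrays under the reference, so their folds are bounds. Besides Bmp2, Mmp9 and Cxcl11 these were Bmp1 (at least 2.2-fold), Bahcc1 (at least 2.54-fold), Zranb3 (at least 1.73-fold), Slco5a1 (at least 2.97-fold), Rrad (at least 1.37-fold) and Slc37a1 (at least 1.87-fold). Of the 20 falls 8 were under the reference at 12 h, among them Spc24 of the kinetochore (at least 2.87-fold lower), Mycl of the Myc family (at least 1.55-fold), and Erc1 (at least 2.12-fold), Fxyd4 (at least 1.93-fold) and Maf1 (at least 1.43-fold). Maf1, Erc1 and Zranb3, and Nek2 and Kif2c described above, each had at least 1 other probe set above the reference. These had the same sign, and none of them was called.

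Defining markers of DCs and macrophages were present on the 4 arrays. Itgax, which encodes CD11c, gave 18419.6 and 19541 at 4 h and 13920.3 and 15234 at 12 h (-0.38 ± 0.10, adjusted p = 0.0831), and 13 of 15 measured markers of conventional DCs were above the reference, with a summed signal of 52323 to 52753 at 4 h and 51390.0 to 53521 at 12 h. Of the 15 markers 4 were called higher (26.7%, against 1.79% of all genes) and none lower, with a median difference of 0.31. The 4 were Zbtb46, Irf8, Batf3 and Sirpa, a signal regulatory receptor, which rose by 0.52. Xcr1 was not above the reference on any of the 4 arrays, and Flt3 on 1 at each time. All 14 measured macrophage and monocyte markers were above the reference. At 12 h 5 of them were higher (35.7%, against 1.79% of all genes) and none lower (median 0.37). Among the 5, Adgre1, which encodes F4/80, rose from 1144 and 897 to 2061 and 2483 (1.16 ± 0.14, adjusted p = 5.07e-04). The sum of the 14 went from 145379 to 150143 at 4 h to 161359 to 162147 at 12 h, and its largest parts, Lyz2 and Csf1r, did not pass (0.05 and -0.03). The part of a change in the mix of DCs and macrophages in the results above was not tested.

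Markers of other cells that marrow cultures can hold were above the reference to different extents. Of 14 measured neutrophil markers 7 were above the reference on both arrays of a DMSO group. Csf3r, the G-CSF receptor, rose from 152 and 207 to 672 and 741 (1.99 ± 0.26, adjusted p = 0.00111) together with Mmp9, while S100a8 (2529 and 2428, then 2359.9 and 2292) did not pass and Elane, Ltf, Ctsg and Cxcr2 were under the reference on all 4 arrays. The 14 summed to 6371 to 6633 at 4 h and 7351 to 7563 at 12 h. Of 10 platelet and megakaryocyte markers 8 were above the reference, and their sum went from 13921 to 16246 at 4 h to 21031 to 21949.5 at 12 h. Most of it was Pf4, which did not pass (0.45, adjusted p = 0.145), with only Ppbp called and Gp9 under the reference throughout. Of 7 Langerhans cell markers 6 were above the reference, and their sum went from 10646 to 11348 at 4 h to 4654 to 6202 at 12 h. Plet1 and Cd1d1 were called lower and Ly75 higher, and Cd207, which encodes langerin, was above the reference on only 1 array, at 4 h. Of the 12 progenitor markers only Sox4 was called, rising from 5537 and 6179 to 9673 and 10249 (0.77 ± 0.11), and 4 were above the reference. Their sum was 6288 to 7106 at 4 h and 10709 to 11370.2 at 12 h. Of 10 osteoclast markers 7 were above the reference, of which Acp5 and Mmp9 were higher and Dcstamp, a fusion protein, fell by 0.79. Of 6 eosinophil markers 1 was above the reference, Siglecf, which fell by 0.64. The osteoclast markers summed to 20848 to 21249 at 4 h and 16927 to 17613 at 12 h, and the eosinophil markers to 3184 to 3274 and 1915 to 2315. Of 8 plasmacytoid DC markers 5 were above the reference, with sums of 4749.7 to 4839 at 4 h and 4299 to 4666 at 12 h. The numbers above it were 2 of 14 for mast cells and basophils, 2 of 11 for B cells, 4 of 14 for T and NK cells, 1 of 8 for erythroid and 4 of 14 for stromal cells. No marker of mast cells, plasmacytoid DCs, B cells, T and NK cells, erythroid or stromal cells was called, and the sum for T and NK cells was 3596 to 3982 at 4 h and 4865 to 4970.2 at 12 h. The T cell genes Cd3d, Cd3e and Cd3g, the B cell genes Cd79a and Ms4a1, the mast cell genes Cpa3 and Fcer1a and the globin gene Hba-a1 were under the reference on all 4 arrays.

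The extract arrays give the same time interval in cells that share no array with the vehicle groups, although the fit shares its estimate of the spread over all 8. Of the 533 probe sets higher in vehicle, 527 (98.9%) were also positive there and 390 (73.2%) were called higher, where 1.55% of all probe sets were. Of the 415 lower, 411 (99%) were negative and 313 (75.4%) were called, where 1.31% of all were. Read the other way, 55.9% of the extract calls for higher and 53% of those for lower were called in vehicle. Over the same 23355 probe sets as above, 72.5% had the same sign, with r = 0.532 and rho = 0.553 across probe sets, which are not independent replicates.

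No probe set changed differently over time in vehicle and in extract at an adjusted p under 0.05 by limma. At an unadjusted p under 0.05 there were 1647 of 45037, fewer than that threshold would pass if nothing differed. With 2 arrays in each group, neither count shows that the changes over time were alike. The smallest adjusted p was that of Calb2 (0.756), which rose by 1.96 in vehicle and by 4.65 with extract, from 22.6 and 32.3 to 606 and 755. Plet1 fell in both, by 3.87 in vehicle and to 806 and 750.5 from 5121 and 6021 with extract (unadjusted p of the difference 2.50e-04, adjusted p = 1). Bahcc1 and Slc37a1 rose in vehicle from under the reference, while the extract arrays gave 167 and 219.6, then 119.9 and 232 for Bahcc1 and 177 and 212, then 135 and 128 for Slc37a1. For Bahcc1 and Slc37a1 the adjusted p of the difference was also 1.

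**Figure D5:**
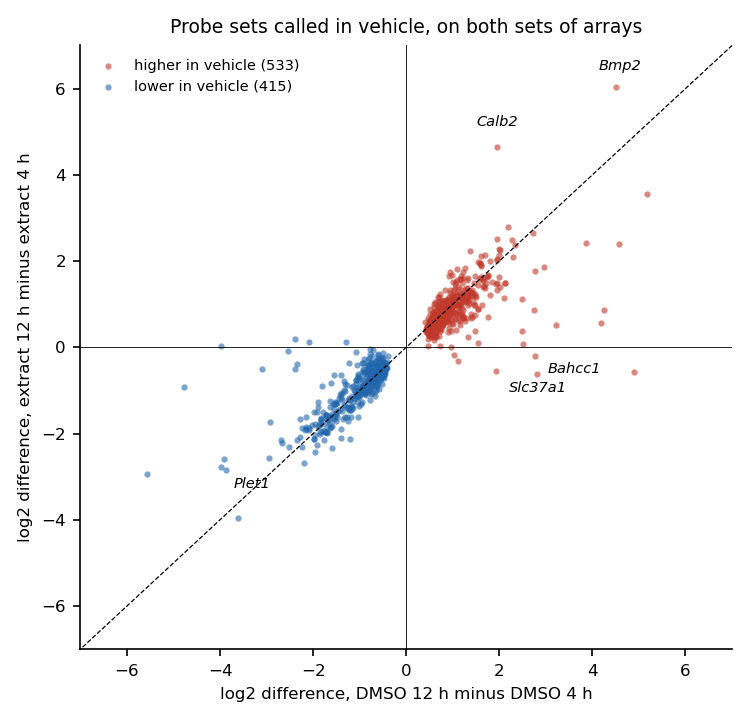
Each of the 948 probe sets called in vehicle, with its log2 difference between 12 h and 4 h on the DMSO arrays (horizontal axis) against that on the [BF/S+L/Ep] arrays (vertical axis), red for the 533 higher and blue for the 415 lower in vehicle. The dashed line marks equal differences, along which most points lie, with Calb2 above it and Bahcc1 and Slc37a1 below 0 on the vertical axis.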

How the data were processed

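RNA of BMDCs, after 9 days with GM-CSF and 4 h or 12 h with 0.1% DMSO or [BF/S+L/Ep], was hybridized by the authors to Affymetrix mouse whole-genome arrays, 2 per group. The intensity values are those deposited: MAS5 signals made by the authors (version not given in the sources used here), on a linear scale with a trimmed mean of 500 on each array. Detection calls were not used here. Control probe sets (64 of 45101) were left out. Of 45037 tested probe sets 34945 had 1 gene symbol in the annotation used (18193 genes), 932 several and 9160 none, with symbols updated through Entrez IDs.

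Log2 signals of all 8 arrays were fitted as 4 group means with limma 3.58.1 in R 4.3.3, with an intensity trend in the moderation (4 residual and 8.833 prior degrees of freedom), two-sided tests, Benjamini-Hochberg adjustment over all probe sets and a threshold of 0.05. The fit was tested on simulated data. A group is under the background reference when both arrays are. A bound sets the brighter group's mean against the higher of the reference and the signal on each dim array.

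Genes named were the 20 largest rises and falls (called, 1 symbol, no overlap, the brighter group wholly above the reference, 1 probe set per gene, unnamed genes passed over, of which 5 rises and 0 falls met the conditions), the 4 members of each list with the smallest p, all called members where no more than 12 passed, and the genes the study stained for. The cholesterol list is given whole. Other genes were chosen after their values were seen. Some genes that the rule names are not reported here. List values are at the brightest probe set. The lists (45 of functions and 14 of cell type markers) were written by hand from general knowledge, and members and lists were chosen with earlier results of these data known. Promoters are those of RefSeq. Alternatives were quantile normalization, median centring, 50 added to each signal, exclusion of dim probe sets in 2 ways, no intensity trend, robust moderation, only the 4 DMSO arrays, the replicate number as a block, and each DMSO array left out.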

Additional observations from a re-analysis of the deposited data

How the results depend on the processing

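All 948 called probe sets kept their direction under every alternative in which they were fitted. Only quantile normalization and median centring could have reversed a direction. The other fits keep the group means or the order of groups that do not overlap, so their outcome was fixed in advance. Quantile normalization, the offset of 50, the filters on dim probe sets, robust moderation and a fit of only the 4 DMSO arrays left the counts within 1.5 times. Median centring gave 215 probe sets and 148 genes higher and 290 and 217 lower, the drop being larger among rises, and fitting without the intensity trend gave 0 in all. The cause was not tested. Leaving out 1 DMSO array gave 161 to 224 probe sets higher and 123 to 180 lower, and 111 to 162 genes higher and 87 to 138 lower, with a single array left in that group, which is assumed to vary like the others. The number of probe sets changed at least 2-fold without a test was 547 higher and 402 lower. It was 1816 and 1061 at 1.5-fold, 75 and 64 at 4-fold, 3442 and 2723 without the background filter, and 682 to 1346 and 422 to 849 with 1 array left out. The deviations of same-numbered arrays from their group means correlated at r = -0.029 between the DMSO times, the lowest of the 6 pairs of groups, and at up to 0.11 in the others (23355 probe sets), so the arrays were not treated as pairs. With the replicate block in a paired fit 587 probe sets were higher and 426 lower, 401 and 316 genes. H2-Aa, not called, turned from -0.05 to 0.01 without DMSO 12 h replicate 1 (-0.11 to 0.01 over the 4 arrays left out in turn). Dim probe sets limit what can be seen: 22 of the higher and 16 of the lower calls had the dimmer group under the reference.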
